A study of Rattus norvegicus with 11 samples.

Results

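The genes described here encode the non-collagen part of the lung's extracellular matrix: elastic fibres and the enzymes that crosslink them, glycoproteins, and proteoglycans. They were chosen by name, collagens left out, as the probe sets whose single gene symbol in the array's annotation is one of 37 listed genes. Of these, 36 were measured, by 53 of the 31042 probe sets tested (36 of 14217 genes). The genes were chosen with earlier results of these data known. The signal of Thbs1 was not analysed here, and only its promoter window was searched. A gene with several probe sets is represented by the brightest, and the others are given beside it. All 36 genes had a mean above the background level, 5.72 log2, below which 95% of 27 bacterial control probe sets lay.

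Elastic fibres consist of a core of crosslinked elastin laid on a scaffold of fibrillin microfibrils. Fibulins guide the assembly and lysyl oxidases crosslink the elastin, which gives arteries and alveolar walls their recoil. Around the fibres lie fibronectin, small leucine-rich proteoglycans that bind collagen, and matricellular proteins, which signal to cells more than they bear load. In pulmonary hypertension, thickened arteries are known to contain more of this matrix.

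Whole lungs of Dahl salt-sensitive rats weighing 250 to 350 g were profiled on 11 Affymetrix arrays, with the vasculature flushed at harvest. The groups were room air with vehicle (normoxia, n = 4), hypoxia with vehicle at an inspired oxygen of about 9.5% (n = 4), and such hypoxia plus SU5416, which blocks receptors for vascular endothelial growth factor (n = 3). RNA was taken at 3.5 weeks. There was no SU5416 group in room air, so the drug's effect without hypoxia is not measured, and the study's sorafenib group was not analysed here. Nothing in the labels states that the arrays come from different animals, so p-values measure the spread between these arrays. The series asks what hypoxia and SU5416 alter in the lung.

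Of the markers of lung tissue, 7 of 7 for alveolar epithelium and 3 of 3 measured for airway epithelium were above background in every group. Some markers were uneven among the normoxia arrays. The airway marker Scgb3a1 read 7.52, 12.33, 12.33 and 9.15 log2 in normoxia and 11.94 to 12.70 on the hypoxic arrays. The summed linear signal of 5 cardiac muscle markers was 760 to 14258 in normoxia, 904 to 3316 in hypoxia and 1145 to 4283 with SU5416. The part of such tissue in the matrix values was not tested. The gap between the 3′ and 5′ probe sets of beta-actin widens as RNA breaks down. It was 2.24 and 1.33 log2 on normoxia arrays 1 and 2 and 0.51 to 0.87 on the other 9 arrays. The hypoxia arrays had 0.68 to 0.87 and the SU5416 arrays 0.56 to 0.67, without overlap. Differences from normoxia without normoxia arrays 1 and 2 are given for members whose brightest probe set these moved by over 1.5 times or turned. Values of the other probe sets are over all arrays. Some of those turned without normoxia arrays 1 and 2, among them probe sets of Fbn1, Loxl2, Sparc and Aspn. In whole lung, fewer cells of a type and less RNA per cell cannot be told apart.

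With SU5416 added to hypoxia, most matrix genes stood higher than in room air, although no single gene passed the test over all probe sets. Of the 36 genes, 28 were higher and 8 lower, with a median difference of 0.29 log2, against 47.4% of all genes higher and a median of −0.02. The leading genes were Efemp2 (fibulin-4), Thy1 and Fn1 (fibronectin), followed by Thbs2, Vcan (versican), Aspn (asporin), Bgn (biglycan), Loxl2, Ltbp2, Eln (elastin) and Lox. On these 11 genes every array with SU5416 lay above every normoxia array, as for 6.59% of all genes. Ccn1 alone lay wholly below, as did 6.83% of all genes.

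Each contrast came from a limma fit over all 11 arrays, with Benjamini-Hochberg adjustment over 31042 probe sets and a call at an adjusted p below 0.05. Between hypoxia with SU5416 and normoxia 0 of the 53 member probe sets were called, where 0.0612% of all probe sets were. The smallest limma adjusted p was 0.0643, for Efemp2. At an unadjusted p below 0.05 there were 22 of the 53, against 12.4% of all probe sets. By gene these were 13 higher (6.02% of all genes) and 2 lower (6.7% of all genes). SAM (significance analysis of microarrays), the method the series text names, was computed here from its definition, with a fixed threshold and a fold change above 1.4. No false discovery rate was estimated for its calls, so they are not on the scale of the limma calls. SAM called 6 member probe sets, all higher, of Lox, Thy1, Efemp2, Vcan and Loxl2, where it called 0.596% of all probe sets higher and 0.583% lower. Without normoxia arrays 1 and 2 the genes at an unadjusted p below 0.05 were 8 higher and 2 lower (7.1% and 7.11% of all genes), with 26 of 36 higher and a median of 0.23. Then 17 genes lay wholly higher and 3 wholly lower, against 17.3% and 17.7% of all genes. With the beta-actin gap as a covariate they were 7 and 2 (5.9% and 6.09% of all genes), with 28 of 36 higher and a median of 0.22.

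**Figure D1:**
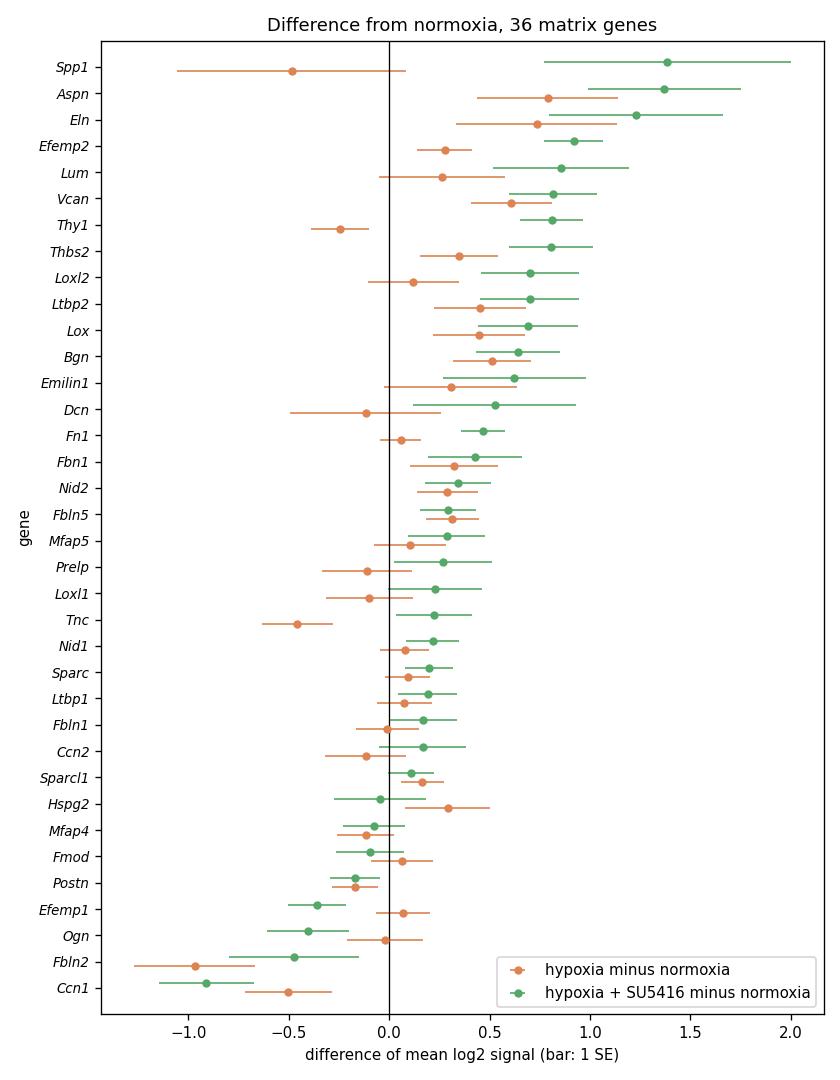
Difference of the mean log2 signal from normoxia for the 36 matrix genes, in hypoxia (orange) and in hypoxia with SU5416 (green), by brightest probe set and ordered by the latter. Points are differences and bars 1 standard error; 28 green and 23 orange points lie right of 0. The normoxia arrays are shared by both differences.

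Hypoxia alone gave a smaller and mixed picture. Against normoxia 23 of the 36 genes were higher and 13 lower, with a median of 0.09 (all genes −0.005). Vcan, Bgn, Fbln5 and Aspn were higher and Fbln2, Tnc (tenascin-C) and Ccn1 lower at an unadjusted p below 0.05, as were 4.3% (higher) and 5.29% (lower) of all genes. Arrays were apart on Fbln5 (higher, with 2.93% of all genes) and on Fbln2 (lower, with 3% of all genes). By limma 0 of 53 probe sets were called (0.00644% of all), 9 had an unadjusted p below 0.05 (11% of all), and SAM called 1, that of Fbln2, lower as were 1.88% of all probe sets by SAM. The number of genes higher at that p was 9 without hypoxia array 4 (4.35% of all genes) and 9 without normoxia array 3 (4.16%). It was 1 without hypoxia array 1 (3.09%) and 2 without hypoxia array 2 (2.59%). Without normoxia arrays 1 and 2 it was 2 of 36, where 7.93% of all genes were higher at that p.

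Compared directly with hypoxia alone, hypoxia with SU5416 had 28 genes higher, 7 lower and Postn at the same mean, with a median of 0.23 (all genes −0.005, 48.9% higher). Every SU5416 array exceeded every hypoxia array for Thy1, Efemp2, Fn1, Tnc, Spp1, Loxl2, Thbs2, Prelp, Aspn and Ccn2, as for 6.07% of all genes. Efemp1 and Ogn lay wholly lower, as for 6.53%. The 7 genes at an unadjusted p below 0.05 were Thy1, Efemp2, Fn1, Tnc, Spp1 and Loxl2, higher (3.67% of all genes), and Efemp1, lower (3.63%). By limma 0 of 53 probe sets were called (0.0258% of all) and 13 had an unadjusted p below 0.05 (7.47% of all). The smallest adjusted p was 0.09, for Thy1. SAM called 7, all higher, of Spp1, Thy1, Tnc, Aspn, Efemp2 and Vcan, where it called 0.999% of all probe sets higher and 0.00322% lower. The median was 0.11 without hypoxia array 4, which had the fewest genes above their own mean. With the beta-actin gap as a covariate the median was 0.15, with 28 of 36 genes higher.

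Of 5 genes of elastin and its microfibrils (Eln, Fbn1, Mfap4, Mfap5 and Emilin1), 4 had a higher mean than in normoxia in both hypoxic groups. Without normoxia arrays 1 and 2 there were 5 of 5 with SU5416, with a median of 0.14 in place of 0.43, and 3 of 5 in hypoxia, with a median of 0.03 in place of 0.31. Array values and differences are in log2 units throughout. Elastin, Eln, read 10.44, 10.24, 11.50 and 11.24 in normoxia, 12.35, 12.11, 10.96 and 10.94 in hypoxia, and 12.16, 12.45 and 11.65 with SU5416. The SU5416 arrays lay above all normoxia arrays, while hypoxia arrays 1 and 2 lay at the level of SU5416 and arrays 3 and 4 within the normoxia range. Relative to normoxia the log2 differences were 1.23 ± 0.43 (SE, 2.35-fold, limma adjusted p = 0.303) with SU5416 and 0.74 ± 0.40 (adjusted p = 0.533) in hypoxia. Without normoxia arrays 1 and 2 they were 0.72 and 0.22. A second, dimmer Eln probe set differed by −0.21 and −0.40 (limma adjusted p = 0.891 and 0.771), so the direction rests on the brighter probe set.

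Fbn1, fibrillin-1 of the microfibril, differed from normoxia by 0.43 ± 0.24 with SU5416 and 0.32 ± 0.22 in hypoxia, and its other probe set by 0.46 and 0.28. The Fbn1 differences were 0.14 and 0.03 without normoxia arrays 1 and 2. Emilin1, a glycoprotein at the interface of elastin and microfibril, differed by 0.62 ± 0.36 and 0.31 ± 0.33, or by 0.12 and −0.20 without those arrays, which turned the hypoxia difference. The microfibril-associated Mfap5 differed by 0.29 and 0.11, and Mfap4 by −0.08 and −0.12. Without those arrays they were 0.14 and −0.04 for Mfap5 and 0.15 and 0.11 for Mfap4. Like Eln, Fbn1 was higher on hypoxia arrays 1 and 2 than on arrays 3 and 4 (11.76, 11.63, 11.23 and 10.96). By limma the smallest adjusted p of these 4 genes against normoxia was 0.49, for Fbn1 with SU5416.

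Fibulins did not stand to one side as a family, with 3 of 5 higher in each of the 3 comparisons, and 2 of 5 with SU5416 against normoxia without normoxia arrays 1 and 2. Efemp2 (fibulin-4), needed for lysyl oxidase to reach elastin, read 8.53, 8.87, 9.11 and 9.13 in normoxia, 9.25, 9.23, 9.22 and 9.04 in hypoxia, and 9.82, 9.80 and 9.86 with SU5416. The SU5416 arrays were above all others, with no overlap. The difference was 0.92 ± 0.15 from normoxia (1.89-fold, limma adjusted p = 0.0643) and 0.64 ± 0.15 from hypoxia (adjusted p = 0.359). A second Efemp2 probe set was higher by 0.63 and 0.36, also without overlap. Without normoxia arrays 1 and 2 the difference from normoxia was 0.71, and that of hypoxia 0.07 in place of 0.28.

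Its paralogue Efemp1 (fibulin-3) stood on the other side. It read 11.68, 11.63, 11.23 and 11.31 in normoxia, 11.43, 11.56, 11.40 and 11.73 in hypoxia, and 11.01, 11.24 and 11.06 with SU5416. The SU5416 arrays lay below every hypoxia array and overlapped the normoxia range. The difference was −0.43 ± 0.14 from hypoxia (limma adjusted p = 0.548) and −0.36 ± 0.14 from normoxia, the latter −0.17 without normoxia arrays 1 and 2. Hypoxia differed from normoxia by 0.07, or 0.26 without them.

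Fbln2, a fibulin of vessel walls and basement membranes, read 8.98, 8.27, 8.27 and 8.33 in normoxia, 7.20, 8.04, 7.58 and 7.15 in hypoxia, and 8.49, 8.21 and 7.26 with SU5416. Hypoxia lay wholly below normoxia, whereas the SU5416 arrays spread over both ranges. The hypoxia difference was −0.97 ± 0.30 (1.96-fold lower, limma adjusted p = 0.332, the smallest of the members in that comparison). With SU5416 it was −0.48, and −0.31 without normoxia arrays 1 and 2. Fbln5, which tethers elastin to integrins on the cell surface, read 10.54, 10.59, 10.51 and 10.23 in normoxia, 10.93, 10.95, 10.65 and 10.60 in hypoxia, and 10.77, 10.92 and 10.59 with SU5416. Every hypoxia array was above every normoxia array, and the SU5416 arrays reached down to the upper edge of normoxia. It was higher by 0.32 ± 0.13 in hypoxia (limma adjusted p = 0.431) and by 0.29 ± 0.14 with SU5416, and the hypoxic groups differed by −0.02 ± 0.14. Fbln1, another fibulin, differed from normoxia by 0.17 with SU5416 and −0.01 in hypoxia, or −0.05 and −0.23 without those arrays. Its dimmer probe set gave the opposite signs, −0.53 and 0.05.

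**Figure D2:**
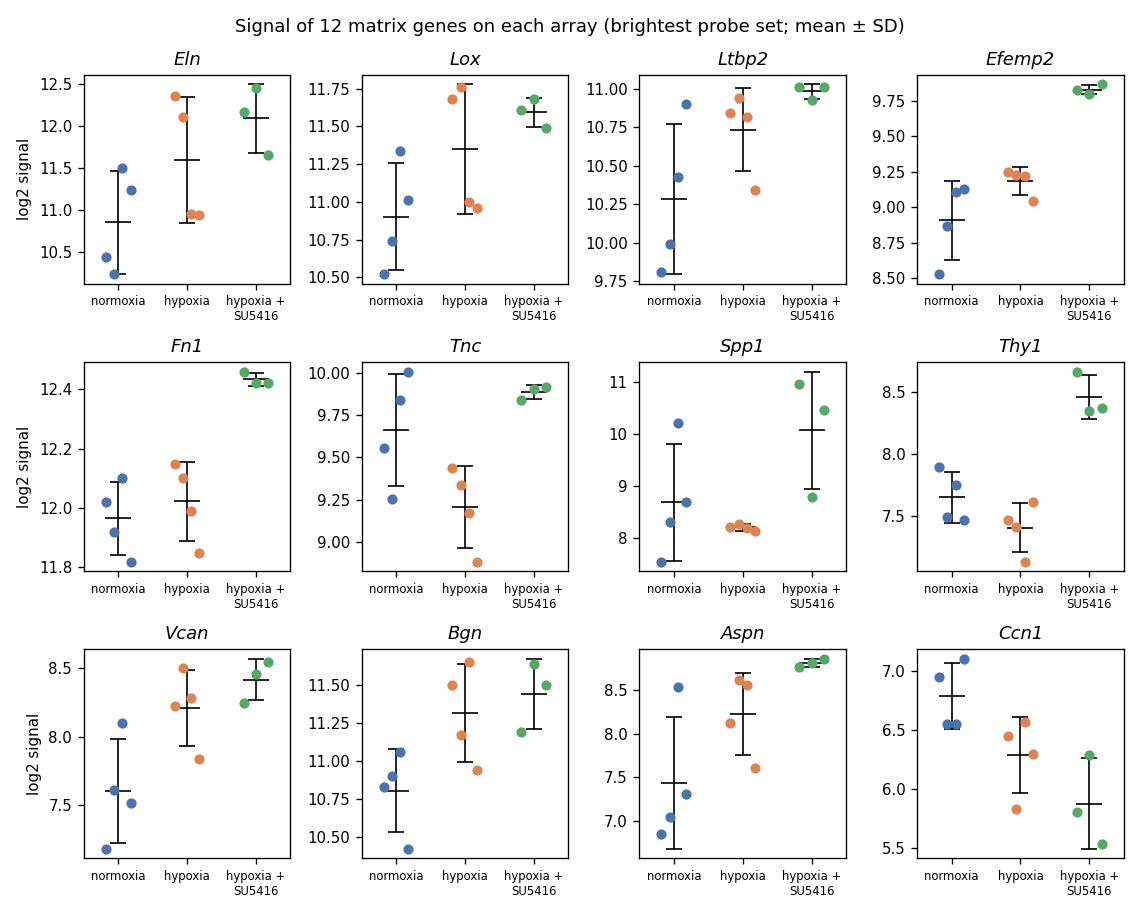
Log2 signal of 12 matrix genes on each array of the groups normoxia (4 arrays), hypoxia (4) and hypoxia with SU5416 (3), by brightest probe set. Points are arrays, and bars show the mean ± SD; each panel has its own axis. The SU5416 points of Efemp2, Fn1 and Thy1 lie above all points of both other groups, and those of Ccn1 lie below all normoxia points.

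The crosslinking enzymes were higher with SU5416 than in normoxia in 3 of 3, and in 2 of 3 without normoxia arrays 1 and 2. Lox, lysyl oxidase, read 10.52, 10.74, 11.34 and 11.01 in normoxia, 11.68, 11.76, 11 and 10.96 in hypoxia, and 11.61, 11.68 and 11.49 with SU5416. As with Eln, hypoxia arrays 1 and 2 were high and arrays 3 and 4 within the normoxia range. The differences were 0.69 ± 0.25 with SU5416 (1.61-fold, limma adjusted p = 0.31) and 0.45 ± 0.23 in hypoxia, or 0.42 and 0.18 without normoxia arrays 1 and 2. A second Lox probe set differed by 0.81 and 0.55.

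Loxl2, a lysyl oxidase linked to fibrosis, read 7.97, 8.12, 8.32 and 7.96 in normoxia, 8.38, 8.65, 8.36 and 7.46 in hypoxia, and 8.68, 8.89 and 8.82 with SU5416. Its SU5416 arrays were above all others. It was higher by 0.70 ± 0.24 than in normoxia and 0.58 ± 0.24 than in hypoxia (limma adjusted p = 0.3 for the former), and a second probe set by 0.21 and 0.70. Hypoxia alone gave 0.12 (0.07 without normoxia arrays 1 and 2) on the brighter and −0.49 on the dimmer probe set. Loxl1, a relative that acts on elastic fibres, differed from normoxia by 0.23 ± 0.23 with SU5416 and −0.10 ± 0.22 in hypoxia. Without those arrays its difference was within 0.01 of 0 with SU5416 and −0.33 in hypoxia.

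The latent TGF-beta binding proteins are relatives of fibrillin, and most of them hold that growth factor in the matrix. Ltbp2 read 9.81, 9.99, 10.43 and 10.90 in normoxia, 10.84, 10.94, 10.82 and 10.34 in hypoxia, and 11.01, 10.93 and 11.01 with SU5416. Normoxia arrays 1 and 2 were the lowest, and every SU5416 array was above every normoxia array. The difference was 0.70 ± 0.25 (1.63-fold, limma adjusted p = 0.303), or 0.32 without those arrays. In hypoxia it was 0.45 ± 0.23, or 0.07 without them. Ltbp1 differed by 0.19 ± 0.15 with SU5416 and 0.08 ± 0.14 in hypoxia, and by 0.16 in hypoxia without them.

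Fn1, fibronectin, the glycoprotein that cells bind through integrins, read 12.02, 11.92, 12.10 and 11.82 in normoxia, 12.15, 12.10, 11.99 and 11.85 in hypoxia, and 12.46, 12.42 and 12.42 with SU5416. All SU5416 arrays were above all others. The excess was 0.47 ± 0.11 over normoxia (1.38-fold, limma adjusted p = 0.147) and 0.41 ± 0.11 over hypoxia (1.33-fold, adjusted p = 0.442), and 0.47 over normoxia without arrays 1 and 2.

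Tenascin-C and osteopontin set the hypoxic groups apart from each other. Tnc, a glycoprotein of remodelling arteries, read 9.56, 9.25, 9.84 and 10.01 in normoxia, 9.44, 9.33, 9.17 and 8.88 in hypoxia, and 9.84, 9.90 and 9.92 with SU5416. It was lowest in hypoxia, with overlap with normoxia and none with SU5416. Hypoxia differed from normoxia by −0.46 ± 0.18 (limma adjusted p = 0.396), and SU5416 was above hypoxia by 0.68 ± 0.19 (1.6-fold, adjusted p = 0.442). Against normoxia the SU5416 difference was 0.22. Without normoxia arrays 1 and 2 it was −0.04, and that of hypoxia −0.72.

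Spp1, osteopontin, a cytokine-like glycoprotein of macrophages and injured tissue, read 7.54, 8.29, 10.21 and 8.68 in normoxia, 8.21, 8.27, 8.19 and 8.12 in hypoxia, and 10.96, 8.79 and 10.45 with SU5416. The hypoxia arrays were all below the SU5416 arrays, and normoxia array 3 lay within the SU5416 range. Its difference was 1.87 ± 0.62 from hypoxia (3.66-fold, limma adjusted p = 0.533) and 1.39 ± 0.62 from normoxia. Hypoxia differed from normoxia by −0.49, or −1.25 without normoxia arrays 1 and 2. The SU5416 difference from normoxia was 0.62 without normoxia arrays 1 and 2 and 1.90 without array 3.

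Markers of macrophages, a known source of Spp1, were also higher in sum. The summed linear signal of 7 measured macrophage markers was 5660 to 9198 in normoxia, 7845 to 8694 in hypoxia and 9238 to 13016 with SU5416. With SU5416, 5 of the 7 were higher than in hypoxia (48.9% of all genes), 3 at an unadjusted p below 0.05 (3.67%). Of the others 1, Adgre1, was lower at that p (3.63% of all genes), by 0.64 on the log2 scale. Its SU5416 arrays all lay below every hypoxia array, as for 6.53% of all genes. None of the 7 was below background. Their part in the result was not tested.

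Thbs2, thrombospondin-2, an inhibitor of vessel growth, read 7.16, 7.55, 8.13 and 7.57 in normoxia, 8.10, 7.96, 8.04 and 7.71 in hypoxia, and 8.58, 8.20 and 8.46 with SU5416. Its SU5416 arrays were above all others, by 0.80 ± 0.21 over normoxia (1.75-fold, limma adjusted p = 0.18) and 0.46 ± 0.21 over hypoxia. Hypoxia differed from normoxia by 0.35, or 0.10 without normoxia arrays 1 and 2. Postn, periostin, a fibroblast product of the matrix, read 12.60, 12.85, 12.65 and 12.74 in normoxia, 12.58, 12.65, 12.56 and 12.37 in hypoxia, and 12.33, 12.71 and 12.58 with SU5416. The 3 groups overlapped, and it differed from normoxia by −0.17 ± 0.11 in hypoxia and −0.17 ± 0.12 with SU5416. Sparc, osteonectin, a collagen-binding protein, read 13, 13.42, 13.24 and 13.19 in normoxia, 13.47, 13.32, 13.18 and 13.25 in hypoxia, and 13.35, 13.45 and 13.43 with SU5416. Its ranges overlapped too, with differences of 0.20 ± 0.12 with SU5416 and 0.09 ± 0.11 in hypoxia, and another probe set gave −0.14 and 0.10. Its relative Sparcl1 differed by 0.11 and 0.17.

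Ccn1 and Ccn2 are related matricellular genes, both induced when cells are stretched. Ccn1 read 6.95, 6.55, 6.55 and 7.10 in normoxia, 6.45, 5.83, 6.56 and 6.30 in hypoxia, and 5.80, 6.29 and 5.54 with SU5416. The SU5416 arrays were wholly below normoxia, and hypoxia overlapped both. The difference was −0.91 ± 0.24 with SU5416 (1.88-fold lower, limma adjusted p = 0.179) and −0.50 ± 0.22 in hypoxia (adjusted p = 0.445), and −0.95 and −0.54 without normoxia arrays 1 and 2. With SU5416 the mean of 5.88 was near the background of 5.72, and the third of these arrays was below it.

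Ccn2, connective tissue growth factor, read 12.95, 13.14, 12.48 and 12.06 in normoxia, 12.52, 12.54, 12.59 and 12.51 in hypoxia, and 12.83, 12.79 and 12.85 with SU5416. The arrays of each hypoxic group were close together (SD 0.04 in hypoxia and 0.03 with SU5416), while the normoxia arrays spread over both (SD 0.49). The SU5416 arrays were above all hypoxia arrays, by 0.28 ± 0.22 (limma adjusted p = 0.84). Against normoxia the differences were 0.17 ± 0.22 with SU5416 and −0.12 ± 0.20 in hypoxia. Leaving out normoxia arrays 1 and 2 turned the hypoxia difference to 0.27 and made that with SU5416 0.55.

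The sequence upstream of the start site is shown for Ccn1 and Ccn2 and for Efemp2 and Vcan, whose SU5416 arrays all lay above normoxia. RefSeq promoter windows were found for 24 of the 37 listed genes (build GRCr8), and the 250 bases before the start were searched on both strands. The search covered the hypoxia response core ACGTG, the aryl hydrocarbon receptor core GCGTG, the AP-1 motif TGANTCA, the TEAD motif GGAATG, the GC box GGGCGG, the CCAAT box, the TATA box TATAAA and the CArG box. Capitals mark every match, and adjoining or overlapping matches run together. Windows are chr1:212211472-212211721 (plus strand), chr2:22595956-22596205 (minus), chr2:237225690-237225939 (minus) and chr1:22624615-22624864 (minus), written 5′ to 3′ toward the gene.
Efemp2: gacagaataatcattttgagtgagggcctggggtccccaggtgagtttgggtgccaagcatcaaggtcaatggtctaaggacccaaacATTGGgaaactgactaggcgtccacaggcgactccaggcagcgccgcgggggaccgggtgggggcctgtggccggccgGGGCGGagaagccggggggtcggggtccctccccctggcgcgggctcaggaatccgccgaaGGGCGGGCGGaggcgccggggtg
Vcan: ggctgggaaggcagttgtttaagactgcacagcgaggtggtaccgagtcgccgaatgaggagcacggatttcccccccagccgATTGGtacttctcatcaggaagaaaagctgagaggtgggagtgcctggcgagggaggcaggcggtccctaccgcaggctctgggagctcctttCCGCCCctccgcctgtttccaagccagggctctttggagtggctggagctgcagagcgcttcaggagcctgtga
Ccn1: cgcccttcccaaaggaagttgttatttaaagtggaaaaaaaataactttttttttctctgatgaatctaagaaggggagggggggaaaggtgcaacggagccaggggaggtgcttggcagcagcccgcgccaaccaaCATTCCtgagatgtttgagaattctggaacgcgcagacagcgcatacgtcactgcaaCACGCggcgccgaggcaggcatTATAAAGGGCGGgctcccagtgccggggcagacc
Ccn2: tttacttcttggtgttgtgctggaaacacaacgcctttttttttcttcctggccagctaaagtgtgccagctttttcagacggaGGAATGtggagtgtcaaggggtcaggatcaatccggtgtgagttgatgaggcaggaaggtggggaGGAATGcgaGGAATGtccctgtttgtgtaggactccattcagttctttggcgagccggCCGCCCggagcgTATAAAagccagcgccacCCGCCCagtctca
The TEAD motif was matched 3 times in the Ccn2 window, beginning 166, 101 and 92 bases before the start, and 1 time in that of Ccn1, 113 bases before it. Both have TATAAA close to the start, at 31 and 34 bases. Ccn1 also holds GCGTG 56 bases upstream. Efemp2 and Vcan have a CCAAT match at 162 and 167 bases and GC boxes, and no match to the TEAD, hypoxia or aryl hydrocarbon receptor letters in this window.

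Over the 24 windows, the TEAD letters were found in 7 (29.2%, against 11.8% of 27457 windows of the same length): Ccn1, Ccn2, Loxl1, Nid1, Ogn, Sparc and Thbs1. GGGCGG was found in 13 (54.2%, against 32.4%), TATAAA in 6 (25%, against 13.1%), GCGTG in 7 (29.2%, against 27.2%) and CCAAT in 8 (33.3%, against 34.3%). ACGTG was found in 2 (8.3%, against 16.9%), those of Aspn and Ltbp1, and TGANTCA in 1 (4.2%, against 6.4%), that of Efemp1. The CArG box was found in 0 of 24 and in 1.5% of all windows. The median GC content was 58.4% among these genes (34.8 to 71.2%) and 52% among all windows, and GC-rich letters are matched more often at a higher GC content. A match is a description of the letters and not evidence of binding.

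Among the small leucine-rich proteoglycans, 5 of 7 were higher with SU5416 than in normoxia, with a median of 0.53, and 4 of 7 without normoxia arrays 1 and 2, with a median of 0.12. Aspn, asporin, which binds collagen, read 6.86, 7.05, 8.53 and 7.32 in normoxia, 8.12, 8.62, 8.55 and 7.61 in hypoxia, and 8.77, 8.80 and 8.86 with SU5416. The SU5416 arrays were above all others, and normoxia array 3 stood above the other normoxia arrays. It was higher by 1.37 ± 0.38 with SU5416 (2.59-fold, limma adjusted p = 0.199) and 0.79 ± 0.35 in hypoxia (adjusted p = 0.453), or by 0.89 and 0.30 without normoxia arrays 1 and 2. Without normoxia array 3, 1 Aspn probe set was called with SU5416 against normoxia. A second probe set differed by 1.23 and 0.39 over all arrays.

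Bgn, biglycan, a proteoglycan of vessel walls, read 10.83, 10.90, 11.06 and 10.42 in normoxia, 11.50, 11.17, 11.65 and 10.94 in hypoxia, and 11.19, 11.64 and 11.50 with SU5416. SU5416 lay above normoxia, and hypoxia array 4 fell within the normoxia range. It was higher by 0.64 ± 0.21 with SU5416 (1.56-fold, limma adjusted p = 0.272) and 0.51 ± 0.19 in hypoxia (1.43-fold, adjusted p = 0.389), and by 0.70 and 0.58 without normoxia arrays 1 and 2. Its relative Dcn, decorin, which controls collagen fibril width, read 9.73, 10.70, 11.70 and 10.36 in normoxia, 10.53, 11.11, 10.06 and 10.32 in hypoxia, and 11.20, 10.93 and 11.31 with SU5416. The normoxia arrays spanned both other groups, and the differences were 0.53 ± 0.41 with SU5416 and −0.12 ± 0.38 in hypoxia, or 0.12 and −0.53 without those 2 arrays.

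Lum, lumican, another collagen-binding member, read 9.20, 9.37, 10.55 and 9.49 in normoxia, 9.67, 10.08, 10.45 and 9.46 in hypoxia, and 10.44, 10.28 and 10.80 with SU5416. Normoxia array 3 lay within the SU5416 range, and it was the highest normoxia array for Aspn and Dcn as well. The difference was 0.85 ± 0.34 with SU5416 (1.81-fold, limma adjusted p = 0.345) and 0.26 ± 0.31 in hypoxia, or 0.49 and −0.11 without normoxia arrays 1 and 2. Ogn, osteoglycin, read 11.47, 11.96, 12.23 and 12.16 in normoxia, 12, 12.22, 11.74 and 11.78 in hypoxia, and 11.29, 11.63 and 11.73 with SU5416. Its SU5416 arrays were below all hypoxia arrays, with a difference of −0.39 ± 0.20. Against normoxia it was −0.41 with SU5416 and −0.02 in hypoxia, or −0.65 and −0.26 without normoxia arrays 1 and 2. Its other 3 probe sets differed from hypoxia by −0.20, 0.69 and −0.09. Prelp, which anchors basement membrane to collagen, differed from normoxia by 0.27 with SU5416 and −0.11 in hypoxia, and Fmod, fibromodulin, by −0.10 and 0.06. For Prelp these were −0.15 and −0.53 without normoxia arrays 1 and 2, and for Fmod −0.22 and −0.06.

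Of the large proteoglycans, Vcan, versican, forms hydrated aggregates with hyaluronan in arterial walls. It read 7.18, 7.61, 8.10 and 7.52 in normoxia, 8.22, 8.50, 8.28 and 7.83 in hypoxia, and 8.25, 8.46 and 8.54 with SU5416. All SU5416 arrays were above normoxia, as were hypoxia arrays 1 to 3. It was higher by 0.82 ± 0.22 with SU5416 (1.76-fold, limma adjusted p = 0.19) and 0.61 ± 0.20 in hypoxia (1.53-fold, adjusted p = 0.356), and by 0.61 and 0.40 without normoxia arrays 1 and 2. Of its other 4 probe sets, 3 were higher with SU5416 by 0.95, 1.02 and 0.79, each without overlap with normoxia, and the fourth was below background in every group. Hspg2, perlecan, the large heparan sulfate proteoglycan of basement membranes, differed by −0.05 ± 0.23 with SU5416 and 0.29 ± 0.21 in hypoxia, or 0.27 and 0.61 without those arrays.

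The nidogens link laminin to collagen IV in basement membranes. Nid1 read 12.11, 12.05, 12.14 and 11.73 in normoxia, 12.25, 12.07, 12.08 and 11.94 in hypoxia, and 12.11, 12.36 and 12.20 with SU5416. These ranges overlapped, with differences of 0.22 ± 0.13 with SU5416 and 0.08 ± 0.12 in hypoxia, and a dimmer probe set gave −0.07 and −0.31. The hypoxia difference of Nid1 was 0.15 without normoxia arrays 1 and 2. Nid2 read 9.18, 9.16, 9.56 and 9.44 in normoxia, 9.72, 9.96, 9.43 and 9.39 in hypoxia, and 9.79, 9.67 and 9.56 with SU5416. It differed by 0.34 ± 0.16 and 0.29 ± 0.15, with overlap of the groups in both comparisons, or by 0.17 and 0.12 without those arrays.

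Thy1, a surface glycoprotein of fibroblasts that also marks neurons and some lymphoid cells, was the member with the smallest p between the hypoxic groups. It read 7.90, 7.50, 7.75 and 7.47 in normoxia, 7.47, 7.42, 7.14 and 7.61 in hypoxia, and 8.67, 8.35 and 8.38 with SU5416. Every SU5416 array was above every other array. The excess was 1.05 ± 0.16 over hypoxia (2.08-fold, limma adjusted p = 0.09) and 0.81 ± 0.16 over normoxia (1.75-fold, adjusted p = 0.1), and hypoxia differed from normoxia by −0.25 ± 0.14. A second probe set read 6.60, 4.72, 6.91 and 4.94 in normoxia, 6.22, 6.60, 6.18 and 6.31 in hypoxia, and 9.13, 8.17 and 8.61 with SU5416. It, too, had every SU5416 array above all others, by 2.31 ± 0.51 over hypoxia and 2.84 ± 0.51 over normoxia (limma adjusted p = 0.33 and 0.0822). Normoxia arrays 2 and 4 of this probe set were below the background of 5.72 and the normoxia mean of 5.79 was near it. Of 6 T and NK cell markers 0 were higher with SU5416 than in normoxia and 4 were higher than in hypoxia. Their summed linear signal was 1905 to 2640 in normoxia, 1423 to 1778 in hypoxia and 1252 to 2144 with SU5416, and their part in the Thy1 result was not tested.

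**Figure D3:**
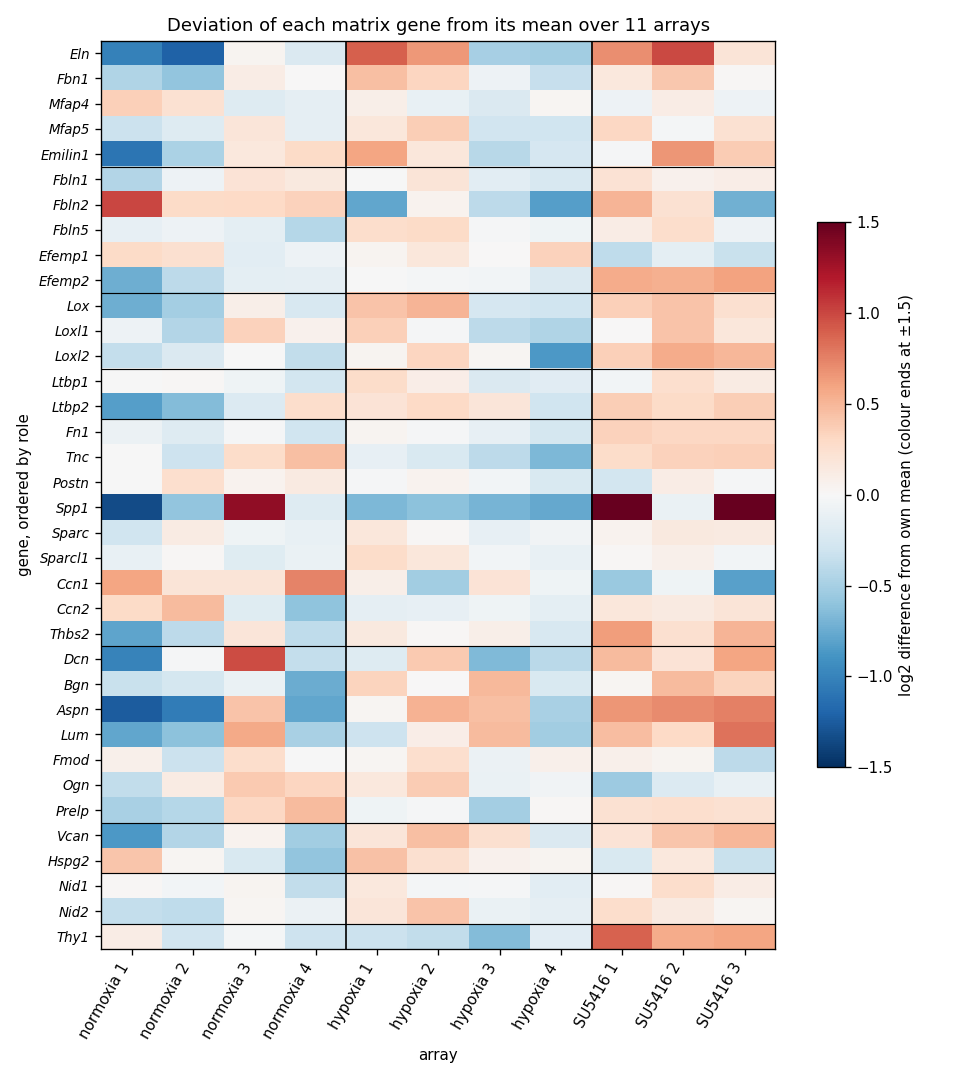
Difference of each of the 36 matrix genes from its own mean over 11 arrays, in log2 units, with genes in rows by role and arrays in columns by group (SU5416 stands for hypoxia with SU5416). Red is above and blue below the mean. The SU5416 columns are mostly red, hypoxia arrays 1 and 2 are redder than 3 and 4, and normoxia array 3 is redder than the other normoxia arrays.

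The members varied among arrays of the same group. On the SU5416 arrays 28, 31 and 26 of the 36 genes were above their own mean over all arrays. In hypoxia the numbers were 25, 25, 10 and 5, and in normoxia 9, 11, 22 and 11. The median SD of a member was 0.31 log2 in normoxia, 0.24 in hypoxia and 0.16 with SU5416, against 0.23, 0.17 and 0.16 over all genes. Spp1 had the widest SD in normoxia and with SU5416 (1.13 and 1.14) and Eln in hypoxia (0.75). Of the 12 genes with several probe sets, these had the same direction for all of their probe sets in 6 with SU5416 against normoxia, 5 in hypoxia against normoxia and 9 between the hypoxic groups. Probe sets of 1 gene can measure different transcript ends.

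**Figure D4:**
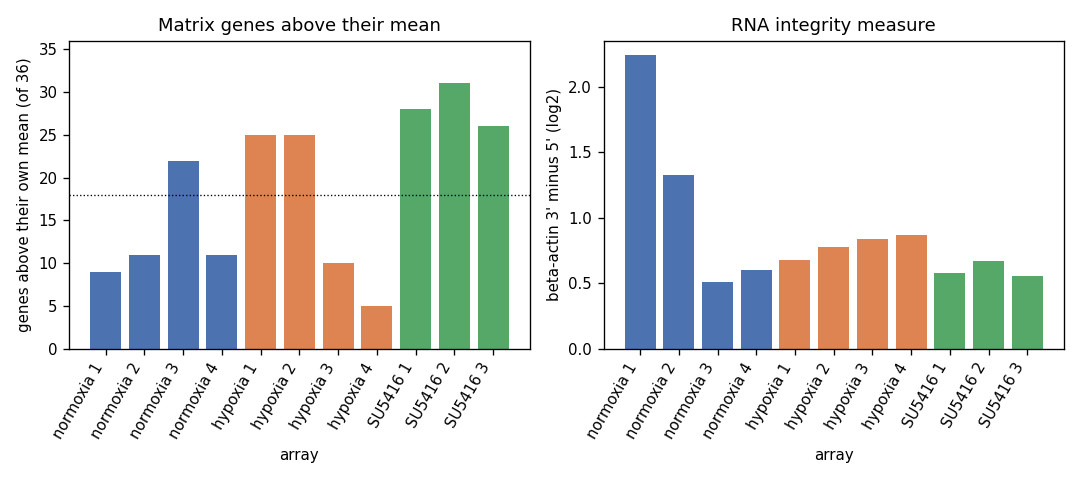
Left, the number of the 36 matrix genes above their own mean over 11 arrays, for each array, with a dotted line at 18. Right, the log2 gap between the 3′ and 5′ beta-actin probe sets. Bars are single arrays in the colours of their group (SU5416 stands for hypoxia with SU5416); the SU5416 arrays have 26 to 31 genes above the mean, and normoxia arrays 1 and 2 have the widest gaps, 2.24 and 1.33.

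Most markers of smooth muscle cells and fibroblasts, which make this matrix, also had higher means with SU5416. All 8 smooth muscle markers were above normoxia, as were 47.4% of all genes. Of the 8, 7 were higher at an unadjusted p below 0.05 (6.02% of all genes), or 6 without normoxia arrays 1 and 2 (7.1%). Their summed linear signal was 11388 to 14594 in normoxia, 11192 to 16793 in hypoxia and 18707 to 21254 with SU5416. Of 7 fibroblast markers 6 were above normoxia, with sums of 20327 to 25903, 21000 to 28900 and 27351 to 30387. The collagens Col1a1, Col1a2 and Col3a1, themselves matrix genes, had the highest means of these markers and were higher by 0.91, 0.56 and 0.17. Pdgfra, Tcf21, Pi16 and Gli1 differed by 0.10, 0.16, 0.24 and −0.11, with Gli1 below background in each group. At an unadjusted p below 0.05, 2 of the 7 were higher with SU5416 (6.02% of all genes). Without normoxia arrays 1 and 2 there were 0 (7.1%). The sums of 5 pericyte markers were 2855 to 4364, 3133 to 4087 and 3918 to 4446. Endothelial markers were lower in 5 of 6, or 3 of 6 without normoxia arrays 1 and 2, with sums of 21860 to 29234, 22650 to 24054 and 19381 to 21518. The part of these cells in the matrix values was not tested.

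Markers of cartilage and pleura, which hold much of some of these proteoglycans, were read as well. Of 5 measured cartilage markers 2 were above normoxia with SU5416, their sums were 602 to 675, 469 to 683 and 570 to 686, and Col9a1 was below background in each group and Col2a1 with SU5416. For 3 mesothelial markers the sums were 3399 to 4647, 4850 to 5344 and 4366 to 5482, with normoxia arrays 3 and 4 at 4005 to 4055. Of these markers 2 were above normoxia in each hypoxic group, and Krt19 was higher by 0.435 in hypoxia and 0.33 with SU5416. The part of these tissues in the matrix values was not tested.

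Other genes of the matrix were divided more evenly by direction alone. Of 83 genes from 5 further lists (elastic fibres, glycoproteins, proteoglycans and hyaluronan, laminins, and receptors), 45 were higher with SU5416 than in normoxia and 38 lower, with a median of 0.03. At an unadjusted p below 0.05, 13 were higher and 6 lower (6.02% and 6.7% of all genes), and 0 were called by limma. Hypoxia against normoxia gave 6 higher and 2 lower at that p (4.3% and 5.29% of all genes), and SU5416 against hypoxia 7 and 4 (3.67% and 3.63%). Without normoxia arrays 1 and 2, 12 were higher and 8 lower at that p with SU5416 (7.1% and 7.11% of all genes). In hypoxia they were then 8 and 8 (7.93% and 7.79% of all genes). Among 25 other glycoproteins 6 were higher and 4 lower with SU5416 than in normoxia at that p (6.02% and 6.7% of all genes). Ccn5 and Ccn3, of the family of Ccn1 and Ccn2, stood at 10.97 ± 0.11 and 11.10 ± 0.14 log2 (SD, n = 3) with SU5416, and at 10.04 ± 0.16 and 10.04 ± 0.48 (n = 4) in normoxia. Their limma adjusted p was 0.0787 and 0.136, and without normoxia arrays 1 and 2 the differences of 0.93 and 1.06 were 0.92 and 0.65. Ecm1, a secreted matrix protein, was lower in both hypoxic groups without overlap with normoxia, with differences of −0.31 ± 0.08 in hypoxia and −0.40 ± 0.09 with SU5416.

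Of 12 other elastic fibre and microfibril genes, 2 were higher with SU5416 than in normoxia at an unadjusted p below 0.05 and 1 lower (6.02% and 6.7% of all genes). Both higher ones were multimerins, which are not elastin or fibrillin genes, and no other gene of the list was higher at that p. They were Mmrn1 (0.92 ± 0.23) and Mmrn2 (0.53 ± 0.14), at 0.64 and 0.67 without normoxia arrays 1 and 2. Among 14 proteoglycan and hyaluronan genes Podn was higher by 0.53 ± 0.19, and Omd differed by −0.46 ± 0.22. Of 10 laminin chains, Lama4, of vascular basement membranes, was higher by 0.65 ± 0.25, and Lamc1 differed by 0.27 ± 0.12. These differences were 0.30 and 0.16, without normoxia arrays 1 and 2, and 0 of the 10 chains had an unadjusted p below 0.05. Among 22 receptors 3 were higher and 1 lower at that p over all arrays (6.02% and 6.7% of all genes). Itga7, a laminin receptor of muscle, was higher by 0.95 ± 0.25 with SU5416 and 0.73 ± 0.23 in hypoxia (0.66 and 0.44 without those arrays), and Itgb5 by 0.32 ± 0.09 and 0.12 ± 0.08. Itga6, another laminin receptor, was higher by 0.62 ± 0.17 in hypoxia and differed by 0.05 ± 0.18 with SU5416.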

How the data were processed

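The deposited values are log2 signals per probe set, which the authors made with RMA per the submitters' processing notes. The trimmed linear mean was 500 on every array, so how signals were summarised and scaled is uncertain, and values were used as deposited. Precision is limited by the number of arrays. Of 31099 probe sets, 57 controls were left out; 20826 of the rest have 1 gene symbol, 436 several and 9780 none, per the platform annotation. A group-means model was fitted with limma 3.58.1 in R 4.3.3 over all 11 arrays and 31042 probe sets, with Benjamini-Hochberg adjustment. In simulated data the calls recovered 70% to 78% of changes of 2 log2 units and 4% to 8% of changes of 0.5. Every member is named; arrays are given for a panel and for up to 4 further members per comparison with the smallest p, and pathway genes for up to 2 per list. Members and lists were chosen with earlier results of these data known. Alternatives covered normalization, filters, the model, SAM, single arrays left out and normoxia arrays 1 and 2 left out together.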

Additional observations from a re-analysis of the deposited data

Results flagged for a closer look

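In 3 of 72 groups of 4 arrays that were checked, 1 array stood far from the rest of its group (Dixon's test at the 95% level), and chance alone marks about 1 in 20 groups. For Fbln2, normoxia array 1 read 8.98 log2, where the nearest normoxia array read 8.33 and the lowest 8.27. For Efemp2, hypoxia array 4 read 9.04, below the nearest at 9.22. For Prelp, hypoxia array 3 read 10.2, below the nearest at 10.65. Groups of 3 arrays were not checked.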

How the results depend on the processing

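The median difference of the matrix genes stayed above 0 in all 22 alternatives run for each comparison: 0.05 to 0.18 for hypoxia against normoxia, 0.22 to 0.39 for SU5416 against normoxia, and 0.11 to 0.31 between the hypoxic groups. The number of member probe sets called moved from 0. For SU5416 against normoxia it was 1 with quantile normalization (Thy1), 1 without probe sets below background (Efemp2), 2 without those below the median (Fn1 and Efemp2), 3 with a trended robust prior (Thy1, Fn1 and Efemp2), 1 with array weights (Efemp2), 2 at an adjusted p below 0.1 and 6 by SAM. It was 0 to 1 with single arrays left out, the 1 being Aspn without normoxia array 3. Over all probe sets, quantile normalization gave 43 calls of 31042, the background filter 58 of 25194 and the median filter 214 of 15521. The trended robust prior gave 145 of 31042 and array weights 32, and 13 were called without normoxia array 3. Between the hypoxic groups the member count was 1 with quantile normalization, 1 with array weights and 1 at an adjusted p below 0.1. Each was Thy1. The count was 7 by SAM and 0 to 0 with single arrays left out. All probe sets called between these groups were 14 with quantile normalization and 24 with array weights. For hypoxia against normoxia the member count was 1 by SAM. Over all 31042 probe sets, limma called 2, 19 and 8 in the order hypoxia against normoxia, SU5416 against normoxia and SU5416 against hypoxia, and 0 to 99, 6 to 214 and 6 to 24 across alternatives.

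Some small differences changed sign, and the cause was not tested. For hypoxia against normoxia, Ogn was 0.07 after centring on the array median, Ccn2 was 0.27 and Lum −0.11 without normoxia arrays 1 and 2, and Ccn2 was 0.0457 with the beta-actin gap as covariate. Tnc with SU5416 against normoxia was −0.0378 without normoxia arrays 1 and 2, and Nid2 between the hypoxic groups was −0.0126 with array weights. With single arrays left out, the hypoxia differences ranged from −0.317 to 0.0433 for Ccn2, −0.01 to 0.14 for Efemp1, −0.867 to 0.024 for Spp1, −0.42 to 0.24 for Dcn, −0.182 to 0.0717 for Ogn, −0.015 to 0.126 for Nid1 and −0.0267 to 0.371 for Loxl2. Ccn2 with SU5416 against normoxia ranged from −0.0333 to 0.327, and between the hypoxic groups Fbln5 ranged from −0.103 to 0.0625 and Nid2 from −0.0267 to 0.161.

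Nothing in the labels states that replicate numbers pair the arrays, and deviations of same-numbered arrays correlated at −0.125 to 0.128. Such correlations cannot exclude a shared batch. With the replicate block, 0 member probe sets were called in each comparison, and the median differences were 0.09, 0.28 and 0.18 in the order above. Over all probe sets the block gave 1, 6 and 6 calls.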
